A study of Mus musculus with 24 samples.

Results

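The Id genes Id1, Id2, Id3 and Id4 were followed through the 8 peak lists of a CUT&RUN study of SOX8 and SOX9 in mouse retina. CUT&RUN releases the DNA around a chromatin protein with a nuclease that an antibody tethers there. The 4 members were taken by symbol from 21887 protein-coding genes of the RefSeq table of GRCm38.p6, and a peak was counted at a gene when it overlapped the gene or the 5 kb on either side, with 50 kb as the second distance. The material was wild-type retina at postnatal day 2 (P2), when progenitors still divide, and at postnatal day 17 (P17), and no transgene or treatment is named for any group. Each age had 4 SOX8 libraries, from 2 antibodies (GeneTex and Proteintech), and 2 libraries each for SOX9 (Millipore Sigma), H3K4me3 and H3K27ac (EpiCypher), and 600000 nuclei were used per reaction. A further 4 libraries had a nonspecific IgG antibody and were not analysed here. The labels do not say whether retinas of several animals were pooled.

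Id proteins are helix-loop-helix proteins without the basic region that binds DNA. They pair with E proteins such as the product of Tcf3 and so keep these from working with tissue-specific basic helix-loop-helix (bHLH) factors. Id genes are classical targets of bone morphogenetic protein (BMP) signalling through SMAD proteins, and in the nervous system they are known for holding progenitors and glia back from neuronal differentiation. Of the histone marks, H3K4me3 is typical of promoters in use, and H3K27ac of promoters and enhancers in use.

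The lists give positions only. Their score was 0 in every peak, and none names a replicate, so no value below has a replicate error, nothing was tested and the depth of the libraries is unknown. The lists held 2653 (SOX8), 5476 (SOX9), 9134 (H3K4me3) and 287845 (H3K27ac) peaks at P2, and 2400, 2855, 9629 and 29909 peaks in the same order at P17. As a check of the tissue, H3K4me3 peaks were counted at marker genes. Progenitor markers (Pax6, Sox2, Ccnd1, Hes1 and Fgf15) had one at 5 of 5 genes at P2 and at 2 of 5 at P17, and rod markers at 4 of 6 and 6 of 6. Markers of Müller glia, the main glia of the retina, had one at 4 of 6 and 2 of 6. Of all protein-coding genes, 49.3% had an H3K4me3 peak at P2 and 50.9% at P17, so the Müller glia counts are near the background. Among the glial markers, Aqp4 and Clu had no H3K4me3 peak at either age. Endothelial genes (Kdr, 1 of 6), microglial genes (Aif1, 1 of 5) and astrocyte genes (Gfap, 1 of 4) had 1 gene each with a peak at either age. Some of these counts rest on few bases. Of the gene plus 5 kb, H3K4me3 covered only 0.0980 kb at Gfap at P2 and 0.589 kb at P17. At the rod marker Gnat1 it covered 0.481 kb at P2.

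All 4 Id genes are short protein-coding genes. Id1 (gene ID 15901) spans 1160 bp of chromosome 2 from 152736251 to 152737410, and Id2 (15902) spans 2294 bp of chromosome 12 from 25093799 to 25096092. Id3 (15903) spans 1571 bp of chromosome 4 from 136143822 to 136145392, and Id4 (15904) spans 4913 bp of chromosome 13 from 48261116 to 48266028. The annotation used gives the ends of each gene and, for Id2, Id3 and Id4, the start site and strand, so peaks are placed by these and not by exon or intron. Id2 is on the minus strand, Id3 and Id4 on the plus strand. Positions at Id1 are counted from its lower end.

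The promoters of Id2, Id3 and Id4 are shown because the P2 peaks of all 4 targets cover them from end to end. Each run covers 250 bases before the start site and 50 bases from it (RefSeq, GRCm38.p6), 5′ to 3′ on the gene's strand, with CCAAT boxes (CCAAT, or ATTGG on the other strand) in capitals. The Id2 promoter is chr12:25096043-25096342 (minus strand), the Id3 promoter chr4:136143572-136143871 (plus strand) and the Id4 promoter chr13:48260866-48261165 (plus strand).
Id2: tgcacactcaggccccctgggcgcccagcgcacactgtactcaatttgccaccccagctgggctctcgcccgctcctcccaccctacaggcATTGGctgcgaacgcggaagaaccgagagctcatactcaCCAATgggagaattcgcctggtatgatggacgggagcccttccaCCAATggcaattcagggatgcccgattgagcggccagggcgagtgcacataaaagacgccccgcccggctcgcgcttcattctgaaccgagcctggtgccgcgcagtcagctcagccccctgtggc
Id3: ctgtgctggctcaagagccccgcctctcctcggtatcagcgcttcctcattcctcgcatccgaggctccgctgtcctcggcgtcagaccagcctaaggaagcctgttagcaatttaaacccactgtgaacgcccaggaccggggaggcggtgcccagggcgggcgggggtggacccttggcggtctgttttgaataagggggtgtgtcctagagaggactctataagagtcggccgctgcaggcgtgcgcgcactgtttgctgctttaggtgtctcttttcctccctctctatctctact
Id4: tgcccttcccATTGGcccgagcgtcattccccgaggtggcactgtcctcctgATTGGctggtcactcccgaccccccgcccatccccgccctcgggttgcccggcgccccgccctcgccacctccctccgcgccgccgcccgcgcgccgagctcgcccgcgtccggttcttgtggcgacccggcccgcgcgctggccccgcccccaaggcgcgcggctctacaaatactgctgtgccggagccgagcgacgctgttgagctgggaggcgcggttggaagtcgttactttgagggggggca

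Of all 32841 promoters of the table, 9.15% overlapped a P2 SOX8 peak, 16.9% a SOX9 peak, 32.4% an H3K4me3 peak and 56.5% an H3K27ac peak, against 3 of 3 Id promoters in each. At P17 the shares were 6.50%, 8.20%, 33.4% and 37.3%. The Id4 promoter alone was under a P17 peak, of H3K4me3, and 1 of 3 is near the share of all promoters.

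In these windows Id2 had 3 CCAAT boxes, at positions -159, -120 and -76 with the start site as 0, Id4 had 2, at -240 and -198, and Id3 had none. Of all 32841 promoters of this length in the table, 37.4% held a CCAAT box on either strand. The GC-rich SMAD element GGCGCC occurred at -231 in Id2 and at -148 in Id4, against 11.9% of all promoters, and not in Id3. The short SMAD motif GTCTG occurred at Id3 in 2 places, against 49.6% of all promoters, and neither at Id2 nor at Id4. All motifs were searched on both strands, overlaps between different motifs included. The SOX cores ACAAT and ACAAAG did not occur in any of the 3 windows, and 42.9% of all promoters held at least 1 of them. A pair of SOX cores in opposite orientation at most 10 bases apart, held by 1.01% of promoters, was not found either. This says only that these letters are not in the 300 bases shown, and the peaks extend well beyond them. An E-box, CANNTG, occurred once at Id2, as CAGCTG at -196, against 72.3% of all promoters. The CRE TGACGTCA, the full SMAD element GTCTAGAC and TATAAA did not occur at the 3 genes, and are held by 1.79%, 0.213% and 13.6% of all promoters. GC boxes, GGGCGG, numbered 1 at Id2, 2 at Id3 and 5 at Id4, and 35.7% of promoters had any. The GC content was 63.3% at Id2, 60.0% at Id3 and 73.3% at Id4, against a median of 52.7% over all promoters, and the Id4 window held 39 CpG dinucleotides against a median of 7.

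At P2 every Id gene carried a SOX8 peak, a SOX9 peak, an H3K4me3 peak and an H3K27ac peak. For SOX8 these 4 of 4 genes stand beside 15.1% of all protein-coding genes with a P2 SOX8 peak within 5 kb, and for SOX9 beside 27.7%. P2 H3K4me3 lay at 49.3% of all genes and P2 H3K27ac at 81.8%, so a P2 H3K27ac peak at 4 of 4 genes is close to what most genes show. Genes no longer than the longest Id gene had P2 SOX8, SOX9, H3K4me3 and H3K27ac less often, at 8.90%, 15.7%, 25.9% and 52.7%. All 4 P2 lists together had a peak at 14.1% of genes and at 4 of 4 Id genes.

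At P17 no Id gene had a SOX8 or a SOX9 peak within 5 kb. That count is near the background, since only 13.0% of all genes had a P17 SOX8 peak and 15.7% a P17 SOX9 peak. Of the 3164 genes that had both SOX8 and SOX9 at P2, 31.4% had neither factor at P17, against 4 of 4 Id genes. Peaks of both marks were at fewer Id genes than at P2. A P17 H3K4me3 peak lay at Id4 only (1 of 4 genes, against 50.9% of all genes), and a P17 H3K27ac peak at Id3 only (1 of 4, against 57.0%). Among genes no longer than the longest Id gene the shares were 26.2% for P17 H3K4me3 and 30.2% for P17 H3K27ac, so 1 of 4 is near the background of short genes. Genes that already had the marks at P2 give another base. Among genes with P2 H3K4me3, 6.91% had none at P17, and among the 3094 genes in all 4 P2 lists 2.46% had none, or 76 genes. Id1, Id2 and Id3 are 3 of those 76. Of genes with P2 H3K27ac, 30.7% had none at P17, and Id1, Id2 and Id4 were among them. The retina was profiled whole, so a smaller share of cells carrying a peak and a weaker peak in each cell cannot be told apart. Summed over the genes of each list, H3K4me3 peaks covered 71.2 kb at the progenitor markers at P2 and 25 kb at P17, 16.8 and 10.8 kb at the Müller glia markers, and 19.5 and 83.9 kb at the rod markers. The P2 sum of the Müller glia markers includes 3.26 kb at Rlbp1, which may also count at the gene Fanci. The endothelial list had 8.91 kb at P2 and 5.16 kb at P17, and the microglial and astrocyte lists had less than 2 kb each at both ages. The part of these cell types in the difference at the Id genes was not tested.

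**Figure D1:**
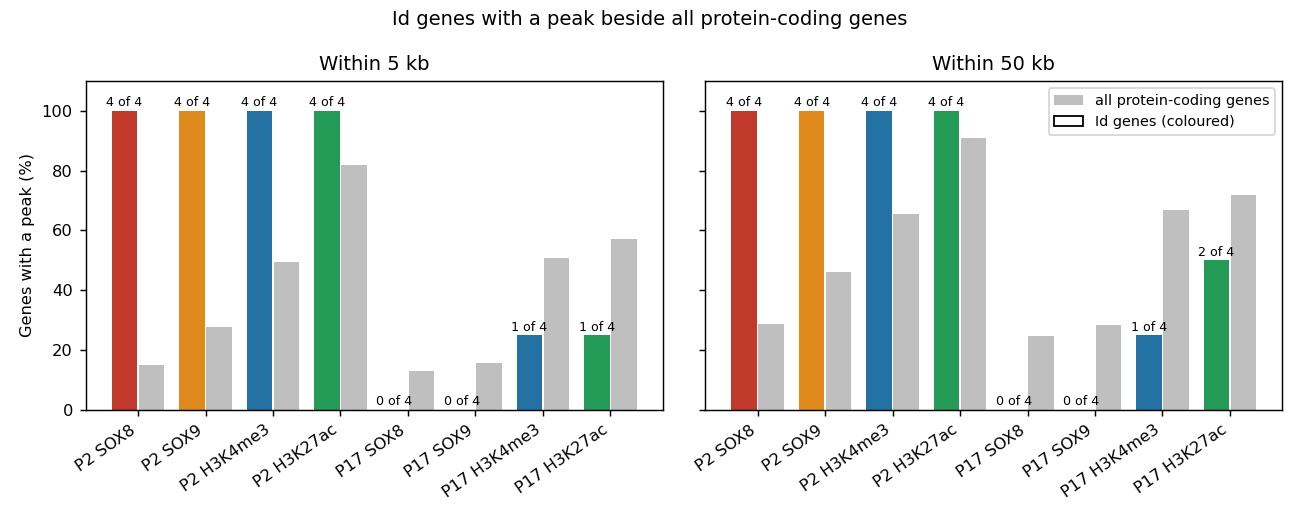
Share of genes with a peak (%) in each of the 8 lists within 5 kb (left) and 50 kb (right). Coloured bars are the 4 Id genes, grey bars all 21887 protein-coding genes. The coloured bars reach 4 of 4 in every P2 list and 0 of 4 in both P17 SOX lists at either distance.

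At Id1 the P2 SOX8 peak was 2360 bp wide (152734640 to 152736999) and lay wholly inside the SOX9 peak of 3126 bp (152733899 to 152737024). It reached from 1611 bp before the lower end of the gene to 748 bp into it. The P2 H3K4me3 peak of 6992 bp began within 3 bp of the SOX9 peak and ran on over the whole gene to 152740887. A P2 H3K27ac peak of 16898 bp (152726832 to 152743729) contained all of these. SOX8 covered 64.6% of the Id1 gene and SOX9 66.7%, while both marks covered all of it. No P17 peak of any list lay within 5 kb. The nearest was an H3K27ac peak of 3361 bp that ended 5781 bp before the gene, just outside the 5 kb limit, and the nearest P17 H3K4me3 peak was 63.8 kb away.

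Id2 had the widest SOX8, SOX9 and H3K4me3 peaks of the 4 genes. The SOX8 peak measured 4407 bp (25095211 to 25099617), the SOX9 peak 7405 bp (25094374 to 25101778) and the H3K4me3 peak 10505 bp (25091518 to 25102022), each inside the next. Most of this lay upstream of the gene: SOX8 reached 3525 bp before the start site and 881 bp past it, and SOX9 reached 5686 bp before it and 1718 bp past it. H3K27ac was split into 4 peaks within 5 kb, of which the widest, 7810 bp, covered the start site and the other 3 were 639 to 876 bp wide and lay over or beyond the 3′ end. In P17 retina Id2 was the barest of the genes: no list had a peak within 50 kb, and the nearest H3K27ac and H3K4me3 peaks were 113 kb and 116 kb away. The nearest P17 SOX8 and SOX9 peaks were both 441 kb away.

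At Id3 the P2 SOX peaks were offset from each other. SOX8 covered 2748 bp (136141973 to 136144720), from 1849 bp before the start site to 898 bp after it. SOX9 covered 6467 bp (136142635 to 136149101), began 1187 bp before the start site and ran past the 3′ end of the gene to 5279 bp after the start. The shared stretch of 2086 bp was 75.9% of the SOX8 peak and 32.3% of the SOX9 peak. Id3 was the only member whose SOX9 peak covered the whole gene. It also had the widest P2 H3K27ac peak of the 4, at 18365 bp (136131261 to 136149625), and an H3K4me3 peak of 8157 bp (136141329 to 136149485). At P17 an H3K27ac peak of 5289 bp (136138264 to 136143552) lay on the upstream side. It stopped 269 bp short of the gene, left the gene itself and the printed promoter bare, and covered the neighbouring long noncoding RNA gene Gm42329 (136138595 to 136142218), so it counts at both genes.

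Id4 had the narrowest P2 SOX9 and H3K4me3 peaks of the 4 genes and the only P17 H3K4me3 peak. Its P2 SOX8 peak of 2675 bp (48260388 to 48263062) and SOX9 peak of 2555 bp (48260221 to 48262775) shared 2388 bp, and at this gene the SOX8 peak was the wider one. The H3K4me3 peak measured 4428 bp at P2 (48259877 to 48264304) and 3620 bp at P17 (48260327 to 48263946), and the P17 peak lay wholly inside the P2 peak. The P17 H3K4me3 peak covered 100% of the place of the former SOX8 peak and 95.9% of that of the SOX9 peak. H3K27ac at P2 had a peak of 3782 bp over the start site and another of 917 bp at the 3′ end, and at P17 the nearest H3K27ac peak was 231 kb away. The long noncoding RNA gene A330033J07Rik (48044231 to 48262623) overlaps the 5′ part of Id4, so peaks over the Id4 start site count at both genes.

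**Figure D2:**
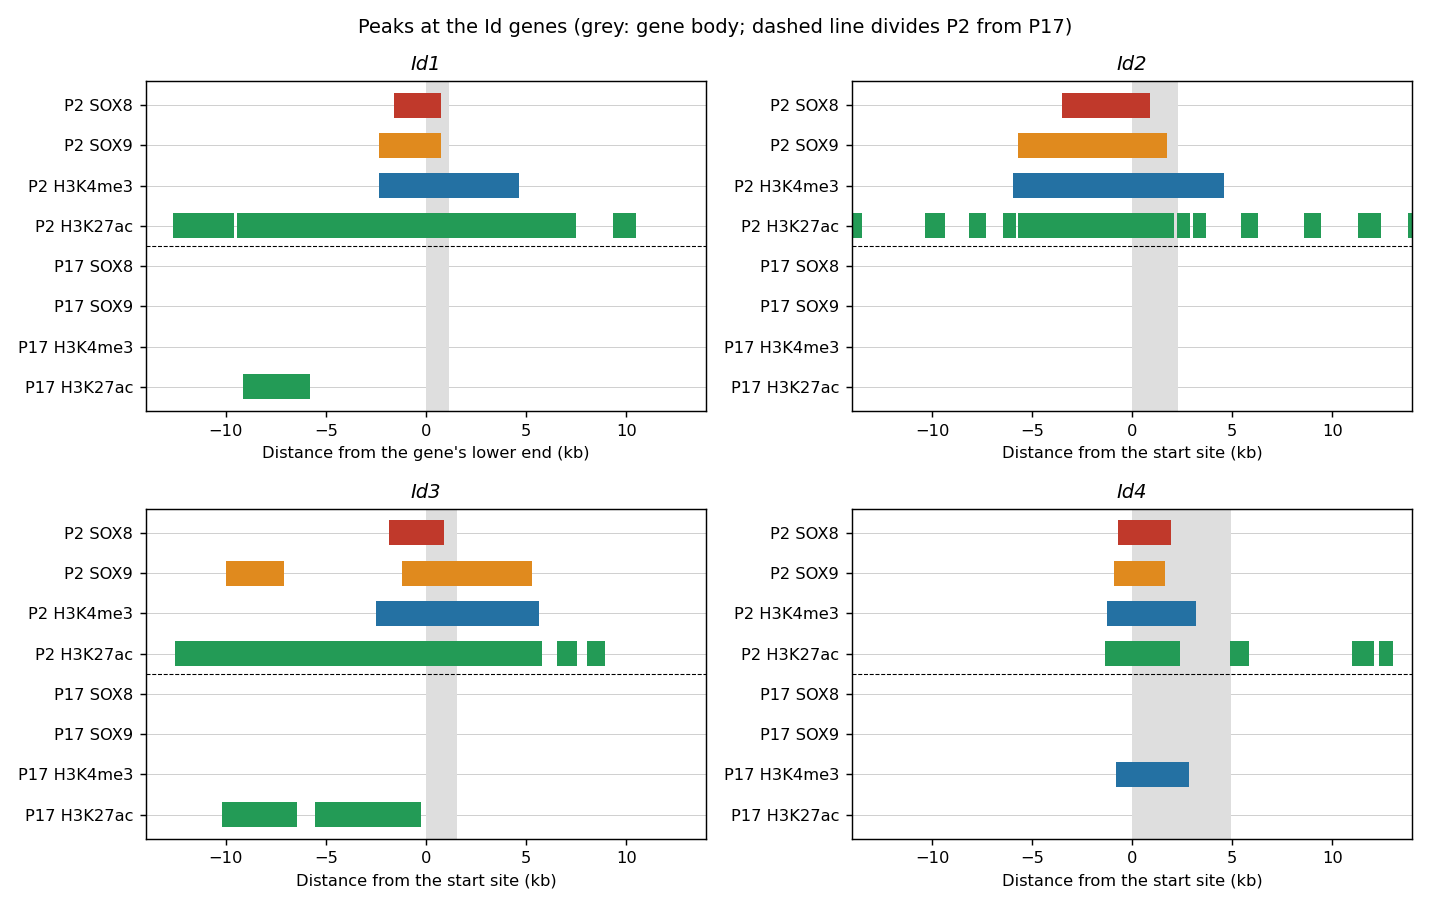
Peaks of the 8 lists at each Id gene, as bars from start to end. The horizontal axis is the distance in kb from the start site in the direction of transcription (for Id1, from the lower end of the gene), the grey band is the gene, and the dashed line divides P2 (above) from P17 (below). The 4 P2 lists stack over the start site of each gene (the lower end of Id1), and below the line only an H3K4me3 peak at Id4 overlaps a gene.

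Across the genes, the bases lying under all 4 P2 targets formed a single stretch over each start site, or at Id1 over the lower end. The stretch measured 2360 bp at Id1, 4407 bp at Id2, 2086 bp at Id3 and 2388 bp at Id4. It reached 1611 bp before the lower end of Id1, and 3525 bp (Id2), 1187 bp (Id3) and 728 bp (Id4) before the start site. Every one of the 4 P2 SOX8 peaks and the 4 P2 SOX9 peaks at the genes overlapped the other factor and both P2 marks, and each lay entirely inside the P2 H3K4me3 peak of its gene. Both marks are usual at such genes, since 3094 of the 3164 genes with P2 SOX8 and SOX9 were in all 4 P2 lists. Of the 4 places of P2 SOX8 peaks, 1 was under P17 H3K4me3 (Id4) and 1 under P17 H3K27ac (Id3, 57.5% of the peak), and the same held for SOX9, though at Id3 only 14.2% of the SOX9 peak was covered.

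The peaks also differed in width relative to their own lists. The Id2 peaks were among the widest, since 97.7% of the SOX8 list at P2 was no wider, as was 98.9% of the SOX9 list and 99.3% of the H3K4me3 list. The Id3 peaks stood at 76.2%, 98.1% and 97.9% on the same scale and the Id1 peaks at 57.9%, 69.1% and 95.9%. Id4 was in the middle of the lists at 73.1%, 45.3% and 75.0%. The H3K27ac peaks over Id1 and Id3 were wider than 99% of the P2 list, at percentiles of 99.6 and 99.7. A P2 peak had a median width of 2217 bp in the SOX8 list, 2668 bp in the SOX9 list, 3542 bp in the H3K4me3 list and 1166 bp in the H3K27ac list. Width is not signal strength, which the lists do not give.

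**Figure D3:**
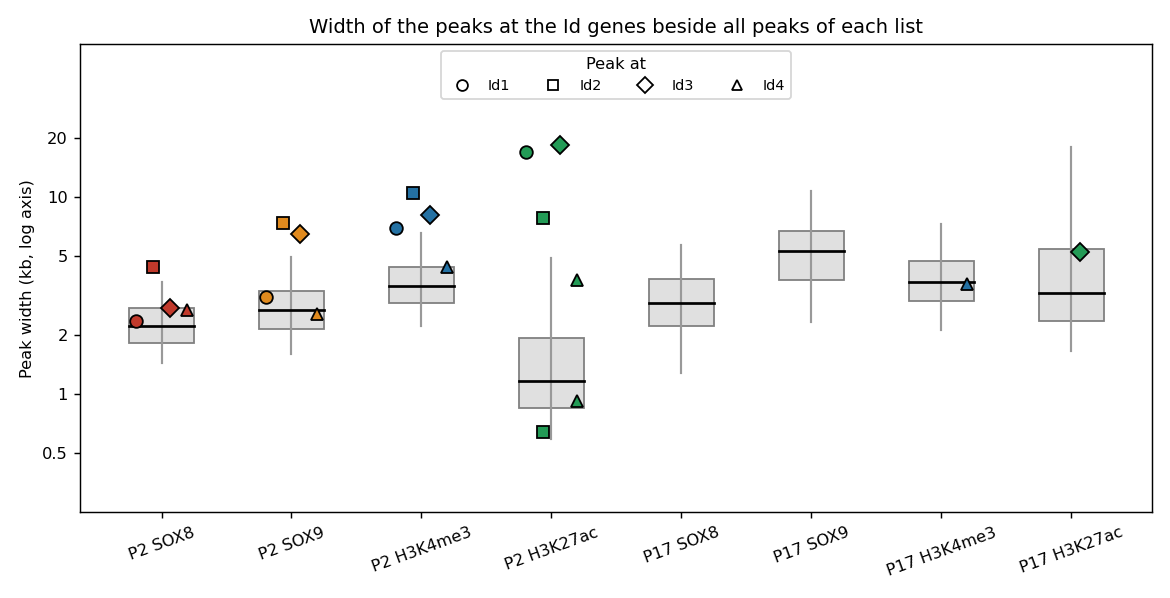
Width in kb (log axis) of the peaks that overlap an Id gene, and of P17 peaks within 5 kb, as symbols by gene. Boxes show the middle 50% of all peaks of each list with the median as a line, and thin lines run from the 5th to the 95th percentile. The widest Id2 peak lies above the thin line in all 4 P2 lists, and that of Id3 in all P2 lists but SOX8, while Id4 stays below its upper end throughout.

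Widening the search to 50 kb added few SOX peaks. SOX8 had no further P2 peak around any of the genes, so 4 of 4 genes still had exactly 1 (28.8% of all genes had any within 50 kb). SOX9 gained 2 peaks, both upstream of Id3 (46.2% of all genes had any). The nearer was 2923 bp wide and ended 7069 bp before the gene (136133830 to 136136752), and the farther was 3116 bp wide and ended 37.6 kb before it (136103154 to 136106269). Neither overlapped a P2 H3K4me3 peak, and each lay inside a P2 H3K27ac peak, the nearer in the one of 18365 bp over Id3 and the farther in one of 14441 bp (136099379 to 136113819). A P17 H3K27ac peak of 3758 bp (136133644 to 136137401) covered the whole of the nearer SOX9 peak's place, while SOX9 itself was no longer listed there. At P2, H3K4me3 within 50 kb (65.5% of all genes) added 1 peak, 24.3 kb from Id3 and at the E2f2 gene, which encodes a cell cycle transcription factor.

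P2 H3K27ac filled much of the 50 kb surroundings, with 15 peaks over 78.8% of the window at Id1, 32 over 64.9% at Id2, 19 over 73.5% at Id3 and 18 over 23.6% at Id4. The median over all genes was 16 peaks and 21.0%, and 91.1% of genes had at least 1. Id1, Id2 and Id3 therefore lay in surroundings covered at least 3 times as densely as the median, and Id4 near the median. At P17 the coverage was 24.7% at Id1, in 6 peaks, and 12.4% at Id3, in 3 peaks, and no peak lay within 50 kb of Id2 or Id4. The P17 median was 6.42%, and 72.0% of genes had at least 1. The Id1 surroundings include H13, Mcts2, Cox4i2 and Bcl2l1, and of the 6 P17 H3K27ac peaks there 3 lay over H13 and 1 over Bcl2l1, which encodes an inhibitor of apoptosis. The P17 H3K4me3 list had a peak within 50 kb of 1 of 4 Id genes, against 66.7% of all genes.

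**Figure D4:**
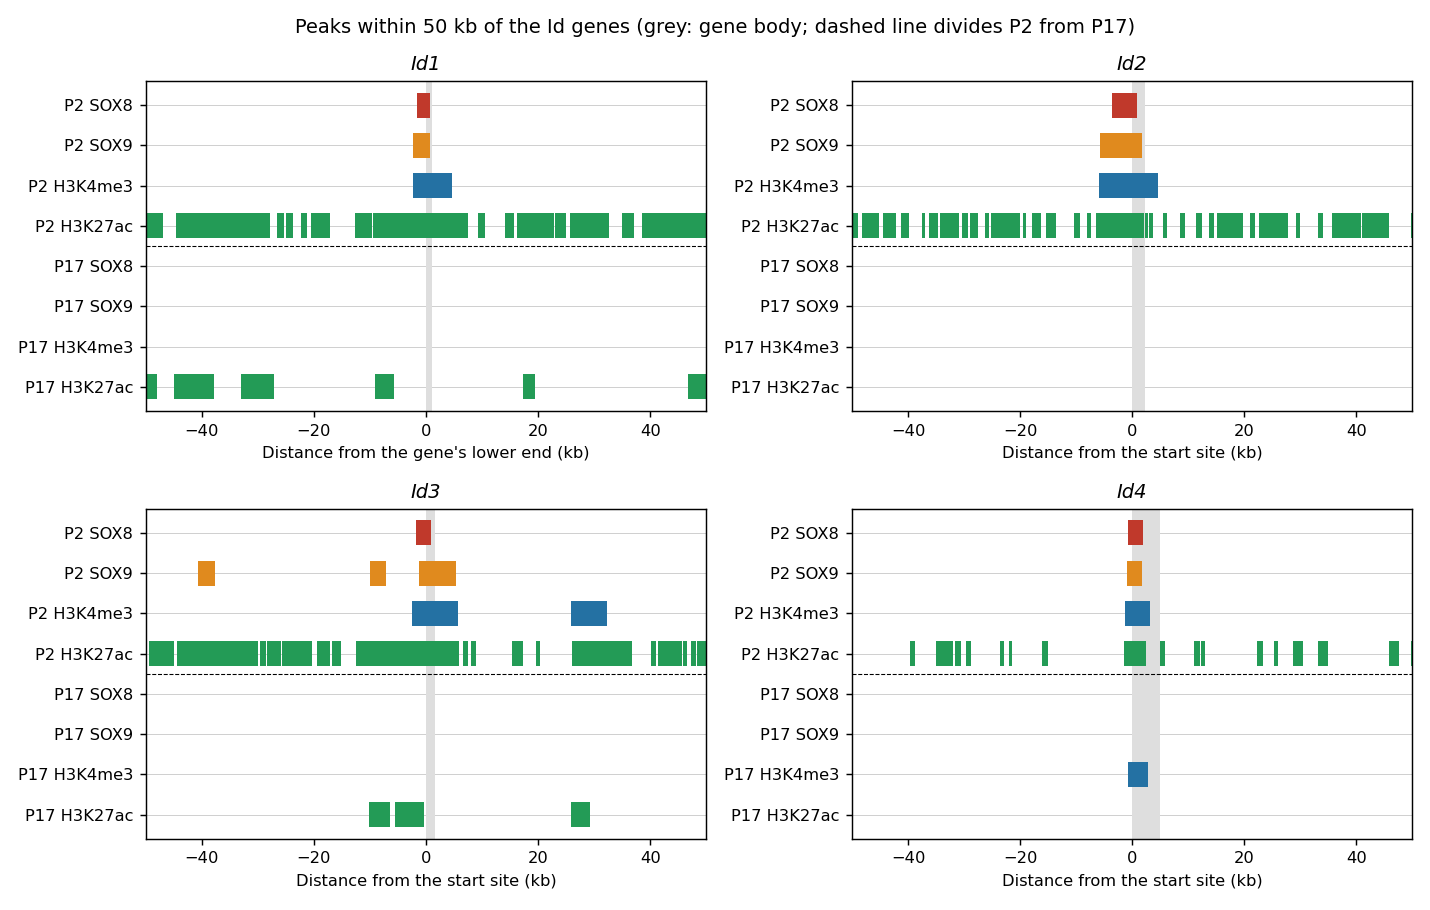
The same plot over 50 kb on either side of each start site (for Id1, of the lower end). H3K27ac covers long stretches at P2 around Id1, Id2 and Id3, and at P17 remains as 6 peaks around Id1 and 3 around Id3. The 2 additional SOX9 peaks lie upstream of Id3.

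At P17, 0 of 4 genes had a SOX8 peak (24.8% of all genes) or a SOX9 peak (28.2%) within 50 kb. As at 5 kb, these counts are near the background. Of the 3164 genes with SOX8 and SOX9 at P2, 23.4% had no P17 SOX peak within 50 kb. The nearest P17 SOX9 peak was 92.7 kb from Id1, 137 kb from Id3, 278 kb from Id4 and 441 kb from Id2. Among those 3164 genes, the nearest P17 SOX9 peak was closer for 72.4% than for Id1 and closer for 86.0% than for Id2. The nearest P17 SOX8 peak was 93.2 kb from Id1, 279 kb from Id4, 287 kb from Id3 and 441 kb from Id2, where the median over the same genes was 1.29 kb. For P17 H3K4me3, 98.8% of the 3164 genes had a nearer peak than Id1, 99.2% than Id2 and 99.1% than Id3, while the Id4 peak lay on the gene. For P17 H3K27ac the shares were 97.5% (Id1), 99.3% (Id2), 94.5% (Id3) and 99.6% (Id4). At Id1 the nearest P17 SOX9 peak lay at the neighbour Bcl2l1, which had a SOX8 and a SOX9 peak at both ages. Kidins220, the neighbour of Id2 at 30.6 kb, had a SOX9 peak at P2 and an H3K4me3 peak at both ages. E2f2 had 1 H3K4me3 peak at P2 and none at P17.

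Likeness to each Id gene was measured over the 8 lists as the Euclidean distance in log2(1 + covered kb) of the gene plus 5 kb, so that a small distance means similar numbers of bases under each target. The closest gene to Id2 was Sox2, at a distance of 0.179, with 4.20 kb of P2 SOX8, 6.18 kb of P2 SOX9, 10.6 kb of P2 H3K4me3 and 9.47 kb of P2 H3K27ac, and 0 in all P17 lists. The same 4 values at Id2 were 4.41, 6.72, 9.57 and 9.30 kb, also with 0 at P17. Sox2 encodes a transcription factor of neural progenitors. Mdk (0.944), LOC115486128 (1.12) and Neurog2 (1.19) were also closer to Id2 than Id1 was (1.23). Neurog2 encodes a proneural bHLH factor, of the class that Id proteins oppose by binding their E protein partners.

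For Id1 the closest genes were Sphk1 (0.426), LOC115486128 (0.461), Sfrp2 (0.502), Zic5 (0.746) and Mdk (0.808). Sfrp2 encodes a secreted modulator of Wnt signalling. For Id3, which kept P17 H3K27ac, they were Tril (0.948), H2bc3 (1.03), Lfng (1.17), Igfbp4 (1.24) and Gli1 (1.34). Lfng modifies Notch receptors, and Gli1 is a transcription factor of the Hedgehog pathway. For Id4, with P17 H3K4me3, they were Pde3b (0.543), Btg3 (0.686), Trim59 (0.712), H4c11 (0.737) and Neto2 (0.808). Each Id gene had at least 5 closer genes than its nearest fellow member: Id1 and Id2 were 1.23 apart, and the remaining pairs 2.54 to 3.75. The distance compares 8 list values per gene and takes no account of gene length or of peaks shared with a neighbour.

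The genes of the same pathway were then read from lists of 31 genes. At P2, 13 of the 31 had a SOX8 peak (41.9%), 20 a SOX9 peak (64.5%), 25 an H3K4me3 peak (80.6%) and 31 an H3K27ac peak, against 15.1%, 27.7%, 49.3% and 81.8% of all protein-coding genes. At P17 the numbers were 5 (16.1%), 6 (19.4%), 18 (58.1%) and 23 (74.2%), against 13.0%, 15.7%, 50.9% and 57.0%. Of the 12 genes with both factors at P2, 7 had neither at P17 (31.4% over all such genes), among them Neurog2, Bmpr2, Smad5 and Nog, and 5 had at least 1: Tcf3, Acvr2b, Smad6, Smad7 and Smurf1. Many of these genes are longer than the Id genes and so have more room for peaks.

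Among the E proteins, the binding partners of Id proteins, Tcf3, Tcf4 and Tcf12 all had P2 SOX9 peaks and H3K4me3 and H3K27ac peaks at both ages. SOX8 at P2 lay at Tcf3 and Tcf4. Tcf3 had SOX peaks at P17 too, with 1.91 kb under SOX8 and 7.76 kb under SOX9, against 2.17 and 2.80 kb at P2.

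Among 7 retinal bHLH factors, 2 had SOX8 and 5 had SOX9 at P2, 0 had SOX8 at P17 and 1 had SOX9 (Neurod1, 4.65 kb). The shares of all genes were 15.1% and 27.7% at P2 and 13.0% and 15.7% at P17, so the P17 counts are near the background. H3K4me3 lay at 6 of the 7 at P2 and at 3 at P17, against 49.3% and 50.9% of all genes. The 3 were Neurod1 and Neurod4, which act in differentiating retinal neurons, and Bhlhe22. Neurog2 (3.10 kb of SOX8 and 4.47 kb of SOX9 at P2) had no P17 peak in any list. Olig2 had 4.87 kb of P2 SOX9 without SOX8, and Bhlhe22 had 2.64 kb of SOX8 and 2.70 kb of SOX9. Neurod1 (6.50 kb) and Neurod4 (4.33 kb) had P2 SOX9 without SOX8. Atoh7, which is needed for ganglion cells, and Ptf1a, which is needed for amacrine and horizontal cells, had no SOX peak.

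In the BMP pathway, the 4 ligand genes had SOX8 at 0 and SOX9 at 1 at P2, and SOX8 at 1 and SOX9 at 0 at P17. Of all genes, 15.1% had SOX8 and 27.7% SOX9 at P2, and 13.0% and 15.7% at P17, so these counts are near the background. No ligand gene had an H3K4me3 peak, against 49.3% of all genes at P2 and 50.9% at P17. Bmp7 had 4.32 kb of SOX9 at P2 and 3.20 kb of SOX8 at P17, while Bmp2, Bmp4 and Bmp6 had P2 H3K27ac only. Receptor genes had SOX8 at 3 of 6 (Bmpr2, Acvr1 and Acvr2b) and SOX9 at 3 of 6 (Bmpr1a, Bmpr2 and Acvr2b) at P2. Of these Acvr2b alone had them at P17, with 6.20 kb of SOX8 and 3.75 kb of SOX9. H3K4me3 lay at the same number of receptor genes, 5 of 6, at both ages. The SMAD genes had SOX8 at Smad5 only (2.36 kb) and SOX9 at Smad5 (2.24 kb), Smad9 (0.317 kb) and Smad4 (3.17 kb) at P2, none at P17, and H3K4me3 at 4 of 4 at both ages.

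Of the inhibitors of the pathway, 5 of 7 had SOX8 at P2 and the same 5 had SOX9, namely Smad6, Smad7, Bambi, Nog and Smurf1, and 7 of 7 had H3K4me3. The P2 shares of all genes were 15.1%, 27.7% and 49.3%. At P17 SOX8 lay at Smad7 and Smurf1, SOX9 at Smad6, Smad7 and Smurf1, and H3K4me3 at Smad7, Bambi and Smurf1. The P17 shares of all genes were 13.0%, 15.7% and 50.9%. Nog, which encodes the secreted BMP antagonist noggin, had 3.39 kb of SOX8 and 2.70 kb of SOX9 at P2 and no P17 peak of any target, the pattern of Id1 and Id2. Smad6 (3.42 kb of SOX8 and 8.26 kb of SOX9 at P2) had 6.40 kb of SOX9 at P17 without H3K4me3. Smad7, an intracellular inhibitor like Smad6, had 2.23 kb of SOX8 and 4.07 kb of SOX9 at P2 and 1.86 and 4.95 kb at P17. Bambi, a decoy receptor, had 2.07 and 2.41 kb at P2, and Smurf1, a ubiquitin ligase, 2.78 and 3.98 kb at P2 and 4.15 and 4.11 kb at P17.

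**Figure D5:**
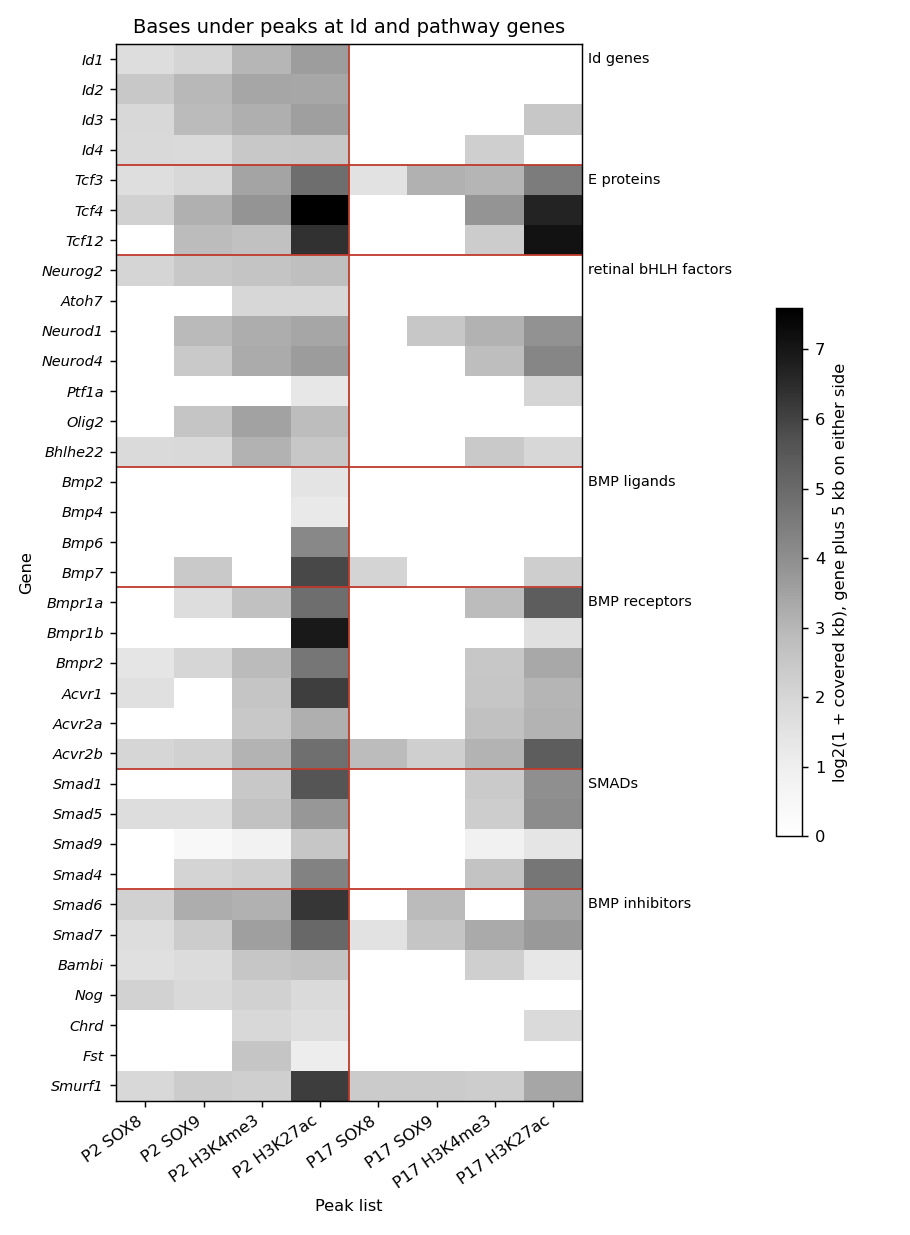
Bases under peaks of each list (columns) at the Id genes and 31 pathway genes (rows, grouped by role), as log2(1 + covered kb) of the gene plus 5 kb on either side, with white for no peak. The vertical line divides P2 from P17. The Id rows are filled at P2 and white at P17 except for H3K27ac at Id3 and H3K4me3 at Id4, and 8 pathway genes (Neurog2, Atoh7, Olig2, Bmp2, Bmp4, Bmp6, Nog and Fst) are white in all P17 columns.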

How the data were processed

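Per the submitters' processing notes, the deposited lists rest on Bowtie2, SEACR and the build GRCm38. Versions, settings, the use of IgG and how a list was made from several libraries are not given in the sources used here. The authors deposited 1 list per age and target with start and end of each peak in bp and a score of 0 in every peak, so peaks could not be ranked by strength. Each list was assigned to its age and target by name. Peaks were counted at a gene when at least 1 bp overlapped the gene plus 5 kb (or 50 kb) on either side, and covered bases, widths and overlaps were computed in Python 3.11.15 with NumPy 2.4.6. The background is the share of 21887 protein-coding genes (RefSeq, GRCm38.p6, chromosomes 1 to 19, X and Y) with such a peak. Counting was tested on simulated data. Motifs were searched in the RefSeq promoter table, which holds 3 of the 4 members. With no value per replicate, no test was run, and the depth per sample is unknown. The members and lists were chosen with earlier results of these data known. Genes named with values are the 4 members, genes within 50 kb of them, listed pathway genes with a SOX peak, and the 5 genes most like each member. Other listed genes and tissue markers are named without values, except Gfap and Gnat1, and Ccnd1 and Rlbp1, which share a member's pattern. Genes sharing a member's pattern were named, some of them with values, after their values were seen. Some genes these rules would name are not reported here, and the gene lists were counted without them. Alternatives were other distances, peak centres, wider peaks, equal list lengths, a stricter overlap and other backgrounds; a planned protein comparison was not run.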

Additional observations from a re-analysis of the deposited data

How the results depend on the processing

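No paired analysis was possible because the lists name no replicate and no test was run. No library could be left out for the same reason. Over 7 alternatives, 53 of 56 counts of Id genes with a peak stayed within 1.5 times the reported one. Many of these could not have moved. A smaller window or fewer peaks cannot raise a count of 0, and a wider window cannot lower one of 4. The P17 SOX8 and SOX9 counts were 0 in every alternative, but only the windows of 10 kb and 50 kb could have changed them. The P17 H3K27ac count rose from 1 to 2 at 10 kb and at 50 kb, where a peak near Id1 enters, and the P17 H3K4me3 count went from 1 to 0 with the wider 50% of each list, which leaves out the Id4 peak. P2 SOX9 was at 3 genes instead of 4 with the wider 50% or with both ages cut to the shorter list, each time without Id4. When 50% of the shorter peak had to be shared, the number of P2 SOX9 peaks overlapping P17 H3K27ac went from 1 to 0, and the other 13 overlap counts did not change. Counts of 0 could not change under this rule, nor could those of peaks lying wholly inside the other peak. Peaks per gene moved in 27 of 224 cases, mostly in P2 H3K27ac. The covered share of a gene's window moved in 63 of 224 cases. A share counted as moved when it left a Wilson interval around the reported one. That interval took each base as an independent trial, which neighbouring bases under a peak are not, so it served only as a label. The covered share stayed in 15 of 32 cases at 1 kb, 14 of 32 at 10 kb and 13 of 32 at 50 kb. The window itself changes size with these distances. All 16 background shares moved with the choice of genes. Among the 4988 genes no longer than Id4, SOX8, SOX9, H3K4me3 and H3K27ac lay at 8.90%, 15.7%, 25.9% and 52.7% at P2 and at 8.50%, 10.6%, 26.2% and 30.2% at P17. Against these the P17 counts of 1 of 4 for the marks are near the background. Among the 11882 genes with H3K4me3 at either age the shares were 27.4%, 49.4%, 90.8% and 99.6% at P2 and 22.2%, 26.3%, 93.7% and 91.0% at P17. All 4 Id genes belong to this set, and 1 of 4 for each P17 mark is below its share. The set was chosen by H3K4me3, so its high H3K4me3 shares follow in part from that choice. Depth and calling threshold are unknown, which limits every comparison of the ages.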

Other observations

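Id1 and Id2 share their pattern, a peak in all 4 P2 lists and in no P17 list within 5 kb, with 23 of the other protein-coding genes, so that 25 of 21887 (0.114%) have it. The genes named here are a selection from these, made after their values were seen. The rest were not grouped by role, and no theme was tested. They include Sox2, Nr2e1, Zic5 and Vim, which are known from neural progenitors or glia, Neurog2 among proneural factors, Nog and Sfrp2 among secreted inhibitors, E2f1 and Cdkn1a among cell cycle regulators, and Etv4, Ngfr, Mcam and Igf2bp1. Nr2e1 resembled Id2 in its P2 H3K4me3, with 10.4 kb, and had 2.46 kb of SOX8 and 4.99 kb of SOX9. At Vim, SOX8 covered more bases than SOX9, as at Id4.

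The Id3 pattern, with P17 H3K27ac as the only P17 peak, was found at 27 genes (0.123%). Sox8 itself is among them, with 3.15 kb of SOX8 and 9.53 kb of SOX9 at P2 and 0.898 kb of H3K27ac at P17, as are Rlbp1, a Müller glia gene, and Ccnd1, with 16.1 kb of P2 SOX9 and 11.5 kb of P17 H3K27ac. Fanci, also among the 27 genes, had the same P2 SOX8, SOX9 and H3K4me3 values as Rlbp1 (2.17, 3.83 and 3.26 kb). These peaks may therefore count at both genes. The Id4 pattern, with P17 H3K4me3 as the only P17 peak, was found at 25 genes (0.114%), among them Sox11, Nfib, Zic2, Tbx3, Maf and Wee1. For both patterns the named genes are again a selection made after the values were seen. Nfib had 7.34 kb of H3K4me3 at P2 and 7.29 kb at P17, while Zic2 had 13.0 kb and 4.43 kb, and at Id4 the 2 values were 4.43 and 3.62 kb.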
